A study of Mus musculus with 9 samples.

Results

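Heme is made from glycine and succinyl-CoA in a pathway that begins and ends in mitochondria, and this report follows 9 genes of that pathway and its surroundings in CD11b+ bone marrow cells of mice. The genes are the ALA synthases Alas1 and Alas2, the later enzymes Alad, Uros, Urod, Cpox, Ppox and Fech, and Tspo. They are 9 of the 23337 genes counted in each library, 8 of them enzymes of heme synthesis. They were selected by name for their place in the pathway with their levels in all 3 groups known, and Alas2 is among the genes shown by the study as lower after EnzR EVs. The values used in that choice are CPM in each mouse, the counts of a gene over a library size scaled by TMM factors, so every level and fold change of the 9 genes is given as a description. No p-value of a single member is given, and counts of members called are set beside the share over all genes without being read as a test.

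ALA synthase joins glycine and succinyl-CoA, and this first step sets the pace of the pathway. Alas1 serves nearly all cells and is repressed by heme, whereas Alas2 is the form of developing red blood cells and depends on iron and erythroid transcription factors. Alad, Uros and Urod act in the cytosol, after which Cpox, Ppox and Fech complete protoporphyrin and insert iron at the mitochondrion. Tspo lies in the outer mitochondrial membrane, binds porphyrins and cholesterol, and is abundant in myeloid cells.

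All 9 mice were male C57BL/6 mice 3 to 6 weeks old, with 3 mice per group. The PBS group received 3 tail vein injections of PBS, on days 1 to 5. The EnzR EVs group received 3 injections of extracellular vesicles from EnzR CWR-R1 cells, an enzalutamide-resistant human prostate cancer line, at 10 µg EV protein each. The EnzR EVs + HDL NPs group received the same vesicles and 3 injections of high-density lipoprotein-like nanoparticles, at 1 µM in the labels and at a higher concentration in the study's methods. There was no group given HDL NPs alone, so an effect of the nanoparticles without vesicles was not measured. CD11b+ cells were taken 24 h after the last injection with a bead separation kit, and stranded total RNA was sequenced, 1 library per mouse.

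Total counts ranged from 2575776 in EnzR EVs replicate 1 to 18110561 in EnzR EVs replicate 2. Rn45s, the ribosomal RNA precursor, took 20.3% of the counts in PBS replicate 1, 42.7% in EnzR EVs replicate 1 and 14.2% in EnzR EVs replicate 3, against 0.657% to 2.87% in the other 6 libraries. These 3 libraries also had the lowest totals, and they are PBS and EnzR EVs libraries only. The myeloid label fitted the markers, since Itgam, which encodes CD11b, lay between 1389 and 2006 CPM and no myeloid gene of the list was at 0 in any library. The erythroid gene Slc4a1 was also counted in each library, between 6.60 and 31.6 CPM.

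The levels of the 9 genes can be ordered within a library once divided by exon length. In PBS mice Tspo led with 154 ± 36.9 CPM per kilobase (SD, n = 3), followed by Alas1 with 45.0 ± 6.03 CPM per kilobase. Ppox had 18.2 ± 3.48 and Urod 14.8 ± 1.32 CPM per kilobase, and these neighbours overlapped. Alas2 followed with 8.14 ± 2.27 CPM per kilobase, below Urod in all 3 mice. Alad at 4.87 ± 2.90, Fech at 4.27 ± 0.617 and Cpox at 3.79 ± 1.30 CPM per kilobase were not separated by their spread. Uros was lowest at 1.89 ± 0.403 CPM per kilobase. Tspo, Alas1, Ppox and Urod kept these first 4 places in both injected groups. Alas2 moved from the 5th place in PBS mice to the 8th in EnzR EVs mice and was 5th again in EnzR EVs + HDL NPs mice, although its range overlapped that of its neighbours in both injected groups and that of Alad in PBS mice.

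**Figure D1:**
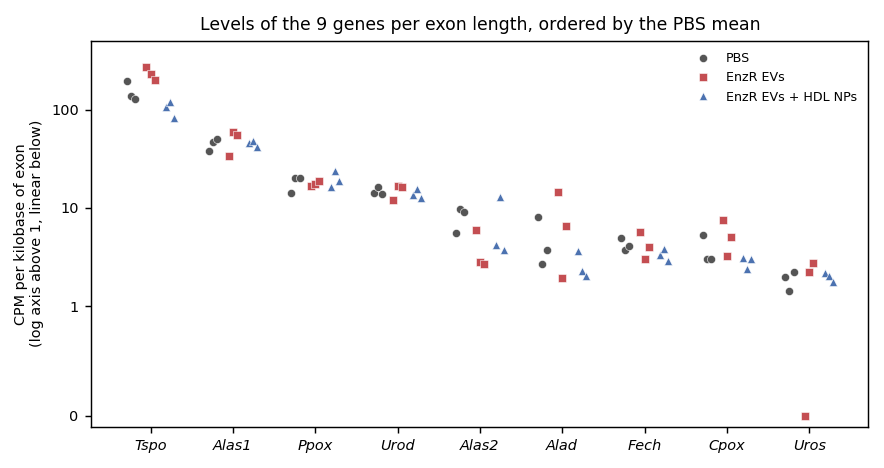
Level of each gene in CPM per kilobase of exon (vertical axis, logarithmic above 1 and linear below) for each mouse, by group, ordered by the PBS mean. Tspo lies above Alas1 in all 9 mice, and the single point at 0 is Uros in EnzR EVs replicate 1.

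The genes differed in how much they varied over the 9 mice. Urod, the uroporphyrinogen decarboxylase, was the steadiest, with a coefficient of variation of 11.3%, and Alad the most variable with 82.4%. Alas2 had 56.5%, while the median over all 12553 genes tested was 25.8%. The sequences upstream of 3 genes are shown because Alas2 and Urod stand for a variable erythroid gene and a steady general one, and Cpox, read below, separated libraries by their Rn45s share. They come from RefSeq on GRCm38.p6 and end before the first annotated exon, and capitals mark GATAA or its complement TTATC, letters bound by GATA factors.
Alas2, chrX:150547167-150547374, plus strand: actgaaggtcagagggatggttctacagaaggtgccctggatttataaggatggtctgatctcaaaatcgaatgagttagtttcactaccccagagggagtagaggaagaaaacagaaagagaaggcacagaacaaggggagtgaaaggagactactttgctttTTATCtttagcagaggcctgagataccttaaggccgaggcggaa
Urod, chr4:116994414-116994663, minus strand: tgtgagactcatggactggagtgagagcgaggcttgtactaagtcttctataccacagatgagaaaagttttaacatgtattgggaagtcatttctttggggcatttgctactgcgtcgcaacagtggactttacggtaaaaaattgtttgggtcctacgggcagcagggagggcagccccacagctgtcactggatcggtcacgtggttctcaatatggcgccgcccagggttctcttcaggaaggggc
Cpox, chr16:58669958-58670207, plus strand: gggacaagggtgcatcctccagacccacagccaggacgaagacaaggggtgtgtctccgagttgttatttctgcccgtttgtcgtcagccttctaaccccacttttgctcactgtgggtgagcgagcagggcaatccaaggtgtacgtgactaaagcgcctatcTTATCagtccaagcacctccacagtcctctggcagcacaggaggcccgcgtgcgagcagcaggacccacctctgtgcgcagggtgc

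Alas2 and Cpox each held 1 match, Urod 0. Among the 7 members with an entry in the table, 1 of the 2 windows of Uros also held a match and Alas1, Alad and Ppox had 0. Of 32851 windows of 250 bases in the whole table, 22.6% held at least 1 match on either strand, so a match alone does not set a gene apart.

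Alas1 was the main ALA synthase in every library and had similar levels in the 3 groups. It had 152, 186 and 197 CPM in PBS mice, 134, 236 and 217 CPM in EnzR EVs mice, and 182, 190 and 164 CPM in EnzR EVs + HDL NPs mice. The groups overlapped, and the EnzR EVs mice held both the lowest and the highest of the 9 values. The log2 fold change was 0.14 ± 0.21 (SE) for EnzR EVs against PBS, 0.0046 ± 0.21 for EnzR EVs + HDL NPs against PBS and −0.14 ± 0.21 for EnzR EVs + HDL NPs against EnzR EVs.

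Alas2, on chromosome X at 150547375 to 150570638 (plus strand, GRCm38), was lower after EnzR EVs in 2 of 3 mice. It had 11.3, 19.7 and 18.8 CPM in PBS mice, a mean of 16.6 ± 4.63 CPM. The EnzR EVs mice had 12.1, 5.75 and 5.56 CPM, a mean of 7.79 ± 3.71 CPM. Replicates 2 and 3 of EnzR EVs lay below every PBS mouse, but replicate 1, which rests on 22 counts, lay above PBS replicate 1, so the groups overlapped. The mean fold change was 2.39-fold lower (log2 fold change −1.25 ± 0.52).

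With HDL NPs added, Alas2 levels split. Replicate 2 of EnzR EVs + HDL NPs had 26.6 CPM, the highest of the 9 mice, whereas replicates 1 and 3 had 8.56 and 7.68 CPM, below all PBS mice. The log2 fold change against EnzR EVs was 1.03 ± 0.51, and it came to 0.17 without EnzR EVs + HDL NPs replicate 2. Against PBS it was −0.23 ± 0.47, and it came to −1.05 without the same mouse. Without EnzR EVs + HDL NPs replicate 3 it was 0.082 and without replicate 1 it was 0.055, the opposite sign.

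The balance of the 2 synthases can be read within a library, where scaling cancels. Alas2 gave 6.92%, 9.59% and 8.68% of the ALA synthase counts in PBS mice. In EnzR EVs mice it gave 8.27% in replicate 1 (95% exact Clopper-Pearson interval 5.26% to 12.3%), and 2.37% and 2.50% in replicates 2 and 3. In EnzR EVs + HDL NPs mice it gave 4.48%, 12.3% and 4.48%. The low shares of EnzR EVs replicates 2 and 3 were below those of all other mice, and their intervals reached 2.86% and 3.31%. These intervals cover counting error only, since the reads carry no molecular identifiers.

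Alas2 levels were set beside those of red blood cell genes, some of which varied over the mice in a similar way. Beta-s, an adult beta globin gene and the only globin gene of the list with counts, had 45.8, 186 and 194 CPM in PBS mice, 13.2, 105 and 30.9 CPM in EnzR EVs mice and 64.7, 277 and 27.8 CPM in EnzR EVs + HDL NPs mice. Slc4a1, the band 3 anion exchanger of the red cell membrane, had 28.2, 21.2 and 31.6 CPM in PBS mice, 29.1, 6.60 and 15.3 CPM in EnzR EVs mice and 12.8, 27.7 and 9.43 CPM in EnzR EVs + HDL NPs mice. Slc4a1 and Alas2 were both below their PBS range in the same 4 injected mice, and neither was below it in EnzR EVs replicate 1 or EnzR EVs + HDL NPs replicate 2. Beta-s differed from them in 3 injected mice: it was at its lowest in EnzR EVs replicate 1, and within its PBS range in EnzR EVs replicate 2 and EnzR EVs + HDL NPs replicate 1. In each same-numbered pair of PBS and EnzR EVs libraries, Beta-s was lower after EnzR EVs. Hba-a1, Hba-a2, Hbb-b1 and Hbb-b2 were listed at 0 in all 9 libraries. These zeros are not read as absent RNA, since their cause was not tested. Other red cell genes differed in how far they followed Alas2. Klf1 was below its PBS range in the same 4 injected mice only. Spna1 and Epb4.2 were below theirs in these 4 mice and also in EnzR EVs replicate 1. Spnb1 was below its PBS range in every EnzR EVs mouse, at 14.3, 9.74 and 11.9 CPM. In EnzR EVs + HDL NPs mice Spnb1 had 16.6, 16.2 and 19.8 CPM, within its PBS range of 15.4 to 21.6 CPM.

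The 24 erythroid genes found in the counts summed to 179, 299 and 342 CPM in PBS mice, 147, 160 and 113 CPM in EnzR EVs mice and 165, 400 and 101 CPM in EnzR EVs + HDL NPs mice. Every EnzR EVs mouse was below every PBS mouse in this sum, but Beta-s makes up much of it. Without the hemoglobin genes the sums were 133, 113 and 148 CPM in PBS mice, 133, 55.0 and 81.8 CPM in EnzR EVs mice and 101, 123 and 73.6 CPM in EnzR EVs + HDL NPs mice, and the groups overlapped. Of the 20 with enough counts for a test, 0 passed an adjusted p under 0.05 in any comparison by edgeR's quasi-likelihood test, by DESeq2 or by limma voom. After EnzR EVs, 8 had an unadjusted p under 0.05, all with a lower level, against 3.47% of all tested genes in either direction, and the median log2 fold change was −0.79 beside −0.027 over all tested genes. For EnzR EVs + HDL NPs against PBS, 0 had an unadjusted p under 0.05 (2.13% of all genes) and the median was −0.35. Against EnzR EVs, 2 had one, both with a higher level (10.6% of all genes), and the median was 0.38. Single genes were also read for overlap of groups. After EnzR EVs, 6 of the 20 were lower than PBS without overlap, against 7.96% of all tested genes in either direction. In EnzR EVs + HDL NPs mice, 4 were lower than PBS without overlap (13.2% of all genes) and 3 were higher than EnzR EVs (17.6%). Whether erythroid cells carried through the CD11b separation set the level of Alas2 was not tested, and fewer cells of a type and less RNA per cell cannot be told apart in these bulk libraries.

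**Figure D2:**
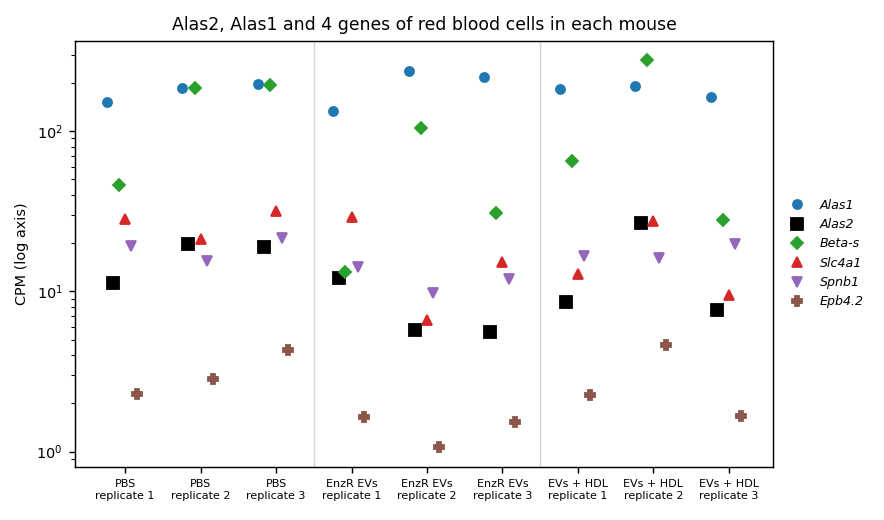
CPM (vertical axis, logarithmic) in each of the 9 mice for Alas2 (black squares), Alas1 and 4 genes of red blood cells. Alas2 and Slc4a1 are both low in EnzR EVs replicate 2 and at 26.6 and 27.7 CPM in EnzR EVs + HDL NPs replicate 2, while Alas1 stays between 134 and 236 CPM.

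The genes most like Alas2 over the 9 libraries, by Pearson's r of log2 CPM, included a red cell gene. Among them were Csnk1e (r = 0.94), Akap8l (r = 0.90), Epb4.2, the red cell membrane protein 4.2 (r = 0.90), and Wdsub1 (r = 0.89). Csnk1e spanned 43.7 to 63.6 CPM and Epb4.2 1.06 to 4.65 CPM. The libraries share their depth and scaling, and these were picked as the highest of all tested genes, so r is a description. With the other members Alas2 had r between −0.32 (Cpox) and 0.55 (Ppox), and with Alas1 −0.24. Among the genes most like Alas1 were Arhgap1, Ifi27l1, Ap3s1 and Ada (r = 0.93 or 0.94), and among the members Urod had r = 0.80 with it.

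Of the genes of the cytosolic steps, Urod varied least over the mice. Alad, the ALA dehydratase, had 10.4, 3.45 and 4.75 CPM in PBS mice, 18.7, 2.45 and 8.39 CPM in EnzR EVs mice and 4.62, 2.92 and 2.58 CPM in EnzR EVs + HDL NPs mice. The groups overlapped, and both the highest and the lowest of the 9 values came from EnzR EVs mice. The log2 fold change was 0.52 ± 0.65 for EnzR EVs against PBS, −0.81 ± 0.63 for EnzR EVs + HDL NPs against PBS and −1.33 ± 0.66 for EnzR EVs + HDL NPs against EnzR EVs. The first of these was −0.17 without EnzR EVs replicate 1, 1.12 without EnzR EVs replicate 2 and 1.02 without PBS replicate 1. The second was −0.28 without PBS replicate 1. The last was −0.62 without EnzR EVs replicate 1 and −1.92 without EnzR EVs replicate 2.

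Uros, the uroporphyrinogen III synthase, had the lowest mean level per kilobase of the members in each group. It had 4.75, 3.45 and 5.32 CPM in PBS mice, 0, 5.32 and 6.50 CPM in EnzR EVs mice and 5.18, 4.83 and 4.26 CPM in EnzR EVs + HDL NPs mice. The library at 0 was EnzR EVs replicate 1, the shallowest, where a count of 0 allows up to 1.65 CPM (3 counts). The other 8 mice lay within 3.45 and 6.50 CPM, and the 3 log2 fold changes were 0.053 ± 0.53, 0.084 ± 0.51 and 0.031 ± 0.52.

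Urod, which acts on uroporphyrinogen next, had 21.1, 24.3 and 20.7 CPM in PBS mice, 18.1, 24.8 and 24.1 CPM in EnzR EVs mice and 20.3, 23.1 and 18.9 CPM in EnzR EVs + HDL NPs mice. The groups overlapped, and the highest mouse had 1.37 times the lowest. Its log2 fold changes were 0.044 ± 0.19, −0.087 ± 0.18 and −0.13 ± 0.19 in the 3 comparisons.

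Of the mitochondrial steps, Cpox was the gene whose groups separated. Cpox, the coproporphyrinogen oxidase, had 16.4, 9.32 and 9.50 CPM in PBS mice, 23.6, 10.0 and 15.8 CPM in EnzR EVs mice and 9.57, 7.45 and 9.29 CPM in EnzR EVs + HDL NPs mice. All 3 EnzR EVs + HDL NPs mice were below all 3 EnzR EVs mice, although by only 0.436 CPM at the nearest pair, and both groups overlapped with PBS. The log2 fold change was −0.84 ± 0.33 against EnzR EVs, −0.39 ± 0.33 for EnzR EVs + HDL NPs against PBS and 0.44 ± 0.34 for EnzR EVs against PBS. With single libraries left out these ran from −1.15 to −0.55, from −0.54 to −0.10 (the last without PBS replicate 1) and from 0.16 (without EnzR EVs replicate 1) to 0.76.

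Alad and Cpox were higher in the libraries with a high Rn45s share. Alad lay between 8.39 and 18.7 CPM in the 3 libraries with the highest Rn45s share and between 2.45 and 4.75 CPM in the other 6. Cpox lay between 15.8 and 23.6 CPM in those 3 libraries and between 7.45 and 10.0 CPM in the other 6. Of the 9 members 2 were higher without overlap in these 3 libraries, as were 15.5% of all tested genes. Without these 3 libraries, a fit that leaves 1 EnzR EVs library, the log2 fold change of EnzR EVs + HDL NPs against EnzR EVs was −0.19 for Cpox and 0.47 for Alad. For EnzR EVs against PBS, Alad then had −0.74 and Cpox 0.093. The part of ribosomal RNA content or depth in these levels was not tested.

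**Figure D3:**
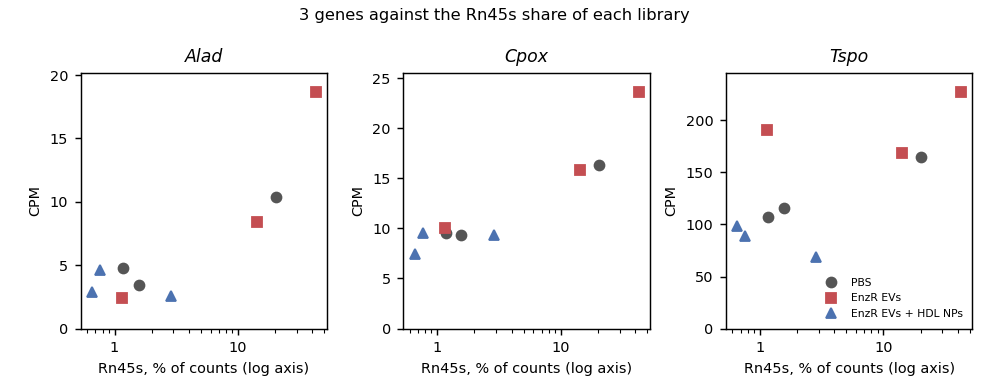
CPM (vertical axis) of Alad, Cpox and Tspo against the share of counts on Rn45s (horizontal axis, percent, logarithmic), 1 point per library. Alad and Cpox are higher in the 3 libraries above 10% Rn45s, whereas Tspo at 190 CPM in EnzR EVs replicate 2 is among the highest values with a share of 1.15%.

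Ppox, the protoporphyrinogen oxidase, had 25.9, 36.6 and 37.1 CPM in PBS mice, 30.2, 31.8 and 33.9 CPM in EnzR EVs mice and 29.8, 43.2 and 34.2 CPM in EnzR EVs + HDL NPs mice. Its log2 fold changes were −0.055 ± 0.20, 0.098 ± 0.20 and 0.15 ± 0.20, with overlapping groups. Fech, the ferrochelatase that inserts iron, had 35.6, 26.8 and 29.9 CPM in PBS mice, 40.6, 21.9 and 28.6 CPM in EnzR EVs mice and 24.2, 27.8 and 20.96 CPM in EnzR EVs + HDL NPs mice. Its groups overlapped too, with log2 fold changes of −0.052 ± 0.24, −0.33 ± 0.23 and −0.28 ± 0.24.

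Tspo, on chromosome 15 at 83563592 to 83574203 (plus strand, GRCm38), was the member with the clearest order of groups. It had 165, 116 and 107 CPM in PBS mice, a mean of 129 ± 30.9 CPM. It had 227, 190 and 169 CPM in EnzR EVs mice, a mean of 195 ± 29.5 CPM. It had 89.4, 98.7 and 69.2 CPM in EnzR EVs + HDL NPs mice, a mean of 85.8 ± 15.1 CPM. The 3 groups did not overlap at all: all EnzR EVs mice were above all PBS mice, and all PBS mice were above all EnzR EVs + HDL NPs mice, with PBS replicate 1 only 4.26 CPM below the lowest EnzR EVs mouse. The nearest mice of the 2 injected groups were 70.1 CPM apart.

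Tspo was 1.51-fold higher after EnzR EVs than after PBS (log2 fold change 0.60 ± 0.21). It was 1.50-fold lower in EnzR EVs + HDL NPs than in PBS mice (log2 fold change −0.59 ± 0.21). Between the injected groups it was 2.27-fold lower with HDL NPs (log2 fold change −1.18 ± 0.21). The comparisons share libraries, so these 3 values are not independent of each other. Leaving out single libraries gave −1.33 to −1.07 between the injected groups, 0.48 to 0.80 for EnzR EVs against PBS and −0.72 to −0.38 for EnzR EVs + HDL NPs against PBS.

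Part of the Tspo order is shared with the Rn45s share, as PBS replicate 1 and EnzR EVs replicates 1 and 3 had 165, 227 and 169 CPM. In the other 6 libraries, Tspo had 116 and 107 CPM in PBS mice, 190 CPM in the 1 EnzR EVs mouse and 69.2 to 98.7 CPM in EnzR EVs + HDL NPs mice, which is the same order. The log2 fold changes in these 6 libraries were 0.77 for EnzR EVs against PBS, −0.38 for EnzR EVs + HDL NPs against PBS and −1.15 between the injected groups, with 1 EnzR EVs library.

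**Figure D4:**
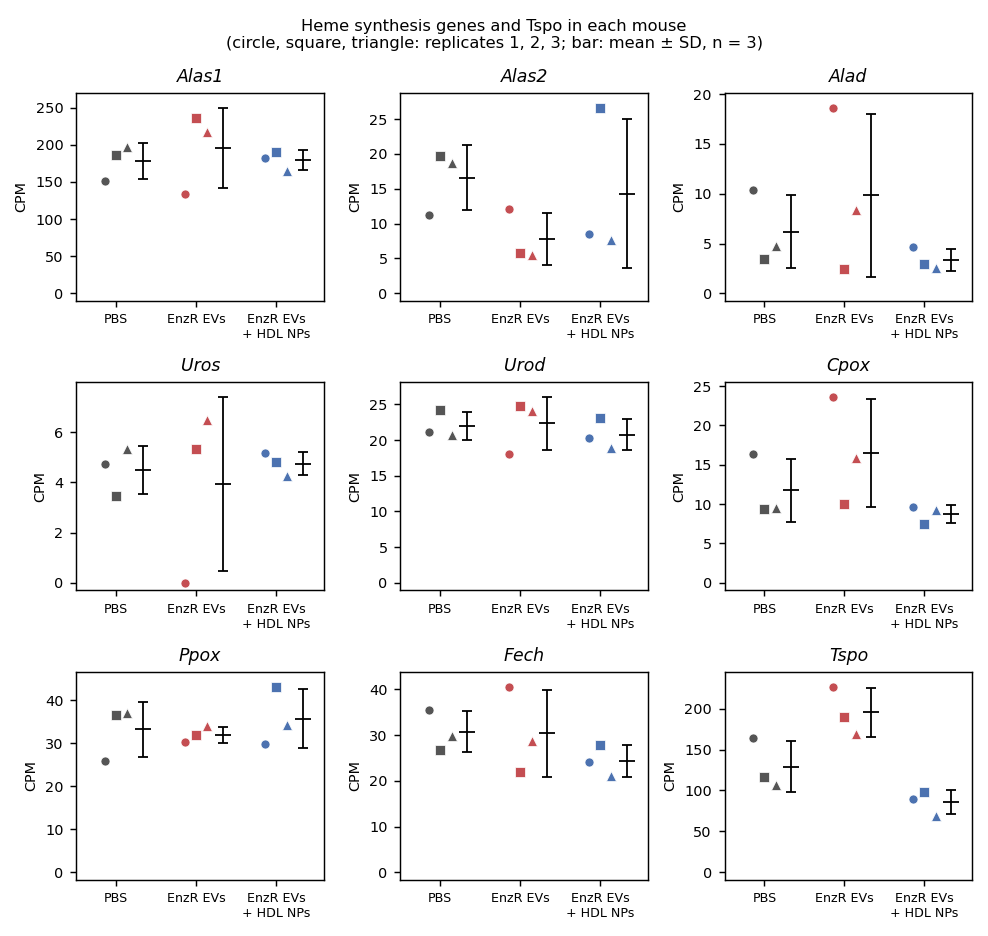
CPM (vertical axis, from 0) of each of the 9 genes in PBS, EnzR EVs and EnzR EVs + HDL NPs mice; points are mice and bars the mean ± SD of 3 mice. The groups of Tspo do not overlap, those of Cpox separate only between the injected groups, and Alas2 has 1 EnzR EVs + HDL NPs mouse far above the others.

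The genes most like Tspo over the 9 libraries were Bub3, a mitotic checkpoint protein (r = 0.97), Lcmt1, Clta, the clathrin light chain A, Psmb6, a proteasome subunit, and Mars, the methionyl-tRNA synthetase (r = 0.94 to 0.95). Bub3 spanned 79.4 to 119 CPM against 69.2 to 227 CPM for Tspo. Among the members Cpox had the highest r with Tspo (0.77), and Alas1 had −0.064. Tspo2, the erythroid paralog of Tspo, named here for its sequence relation, stayed between 0.373 and 2.19 CPM.

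The members called were counted in each comparison. For EnzR EVs against PBS, 0 of 9 genes passed an adjusted p under 0.05 by edgeR's quasi-likelihood test (background 0.0%), by DESeq2 (0.0876%) or by limma voom (0.0%). An unadjusted edgeR p under 0.05 was met by 2 of 9, Alas2 with a lower and Tspo with a higher level, against 3.47% of all tested genes. Groups did not overlap for 1 of 9, Tspo, against 7.96%. With the replicate number as a block, edgeR called 1 gene of all tested in place of 0, which was no member.

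For EnzR EVs + HDL NPs against PBS, again 0 of 9 passed by edgeR (background 0.0%), DESeq2 (0.0637%) or limma voom (0.0%). Tspo was the 1 member under an unadjusted 0.05 by edgeR (2.13% of all genes) and the 1 member whose groups did not overlap (13.2%). For EnzR EVs + HDL NPs against EnzR EVs, 0 of 9 passed by edgeR (background 0.0%) or limma voom (0.0%), while DESeq2 called 1, Tspo, the only gene it called of 12553 (0.00797%). Cpox and Tspo were under an unadjusted 0.05 by edgeR, 2 of 9 against 10.6%, and the same pair did not overlap, against 17.6%. As the choice of genes used these contrasts, nothing is read from these counts.

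**Figure D5:**
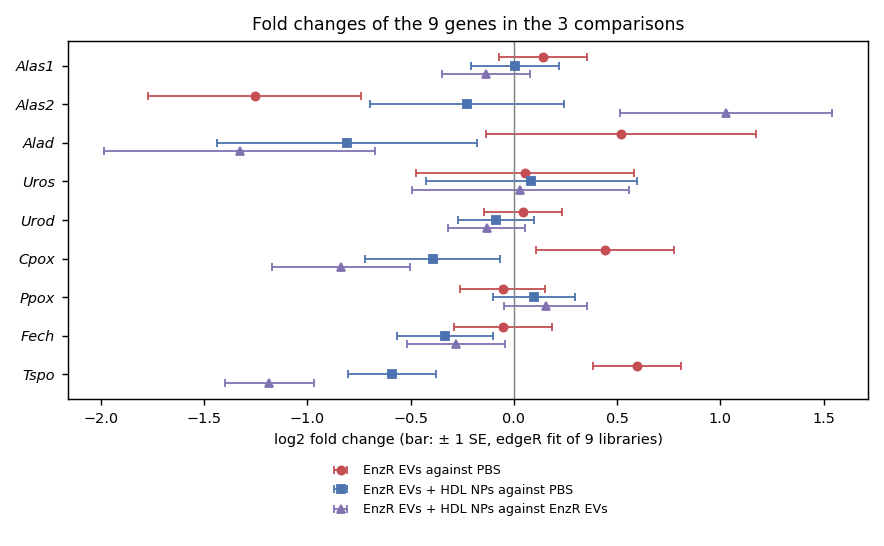
Log2 fold change of each gene (horizontal axis) with ± 1 SE from the edgeR fit of 9 libraries, in the 3 comparisons. Tspo is at 0.60, −0.59 and −1.18 and Alas2 at −1.25, −0.23 and 1.03, while Ppox, at −0.055, 0.098 and 0.15, lies near 0 in each.

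Other genes of heme handling were followed as lists, and in all of them 0 genes passed an adjusted p under 0.05 by edgeR, DESeq2 or limma voom in any of the 3 comparisons. The shares of all tested genes with an unadjusted edgeR p under 0.05, beside which the counts below stand, were 3.47% for EnzR EVs against PBS, 2.13% for EnzR EVs + HDL NPs against PBS and 10.6% between the injected groups. Of 24 tested genes for heme transport and pathway regulation, 1 had an unadjusted edgeR p under 0.05 after EnzR EVs, 2 in EnzR EVs + HDL NPs against PBS and 4 between the injected groups. Their median log2 fold changes were −0.0061, −0.11 and −0.16, and Slc25a37, the mitochondrial iron importer mitoferrin, and Mfsd7b, the heme exporter also called Flvcr1, were among the most abundant. Slc25a37, for example, spanned 63.7 to 86.1 CPM over the 9 mice. Of 11 genes for heme breakdown and sensing, led by Hp, Lrp1 and Bach1, 2, 1 and 1 had an unadjusted p under 0.05 in the 3 comparisons (shares of all genes 3.47%, 2.13% and 10.6%), with medians of −0.47, −0.30 and 0.15.

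Of 14 heme proteins of myeloid cells, led by Cybb, Mpo and Cyba, 1, 0 and 3 had an unadjusted p under 0.05 (shares of all genes 3.47%, 2.13% and 10.6%), the last 3 being 1 higher and 2 lower, and the medians were −0.11, −0.19 and −0.028. Mpo, the heme-containing myeloperoxidase of early granulocytes, had 1209, 838 and 1004 CPM in PBS mice, 1673, 1065 and 1189 CPM in EnzR EVs mice and 1048, 439 and 536 CPM in EnzR EVs + HDL NPs mice. The EnzR EVs + HDL NPs mice were below all EnzR EVs mice in Mpo (log2 fold change −0.96 ± 0.32), and 17.6% of all tested genes did not overlap between these groups in either direction. Of the 14 heme proteins, 2 were lower and 1 was higher without overlap in this comparison. Of 16 iron supply genes, led by Fth1, Slc40a1 and Ftl1, 0, 1 and 2 had an unadjusted p under 0.05 (shares of all genes 3.47%, 2.13% and 10.6%) and the medians were −0.13, −0.22 and −0.16.

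Of 13 genes tied to Tspo at the mitochondrial membrane, led by Vdac2, Slc25a5 and Vdac1, 0, 1 and 1 had an unadjusted p under 0.05 (shares of all genes 3.47%, 2.13% and 10.6%). Their medians were −0.017, −0.027 and −0.014, and Vdac1, the channel found beside Tspo, had log2 fold changes of 0.10 ± 0.16, −0.21 ± 0.16 and −0.32 ± 0.16.

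Marker lists of other marrow cells were read beside Alas2. Of 10 genes of erythroblastic island macrophages, led by Slc40a1, Vcam1 and Emr1, 3 had an unadjusted edgeR p under 0.05 after EnzR EVs, all with a lower level, then 2 and 1 in the comparisons of EnzR EVs + HDL NPs with PBS and with EnzR EVs (shares of all genes 3.47%, 2.13% and 10.6%), and the medians were −0.61, −0.49 and 0.21. Their summed level ran from 1028 to 1799 CPM in PBS mice, 925 to 1113 CPM in EnzR EVs mice and 1085 to 1182 CPM in EnzR EVs + HDL NPs mice. The summed level of 8 platelet genes, led by Itgb3, Itga2b and Ppbp, ran from 119 to 224 CPM, and that of 9 lymphoid genes, led by Nkg7, Gzma and Cd79b, from 38.8 to 93.8 CPM. The myeloid list, led by S100a9, S100a8 and Ltf, ran from 33197 CPM in EnzR EVs replicate 1 to 150366 CPM in EnzR EVs + HDL NPs replicate 2. An unadjusted p under 0.05 was met by 0 platelet genes in each comparison, by 1, 0 and 1 of 8 tested lymphoid genes and by 0, 0 and 1 of 14 myeloid genes, against the same shares of all genes. The median log2 fold changes were −0.25, −0.61 and −0.22 for the platelet list and −0.58, −0.42 and 0.030 for the lymphoid list. For the myeloid list they were −0.24, 0.13 and 0.32. The part of these cells in the levels of the 9 genes was not tested.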

How the data were processed

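RNA of CD11b+ bone marrow cells was measured in 9 libraries, 1 per mouse. The deposited values are raw counts of reads on each gene, which the authors made from single-end reads of 75 bases by adapter trimming, removal of poor and rRNA reads, STAR alignment to mm10 and htseq-count with a UCSC annotation; whether strand was used in counting is not given in the sources used here. The submitters' processing notes name cutadapt 1.13 and HTSeq 0.6.1p1. All 23337 genes carry a symbol and groups came from the sample labels.

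Counts were fitted in R 4.3.3 with edgeR 4.0.16 (TMM, default low-count filter, robust quasi-likelihood fit, 1 coefficient per group, 9 libraries, Benjamini-Hochberg adjustment, threshold 0.05), which tested 12553 genes, all 9 members among them. DESeq2 1.42.0, the study's tool, and limma 3.58.1 (voom) were alternatives, and each fit was tested on simulated data. Log2 CPM used a prior count of 2. Exon lengths and gene positions came from GENCODE M21 on GRCm38, matched by symbol for 20916 genes.

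The members and lists were chosen with earlier results of these data known. Tests of the members planned for the comparisons with EnzR EVs + HDL NPs were run, but their p-values are not printed, because levels of all groups were known when the genes were chosen. Lists were written from general knowledge, and 144 of 148 entries are in the counts, 9 of them under older symbols. Named genes are the members, the 3 most abundant of each list, list genes past the threshold (none) and the 5 genes most like Alas2, Alas1 and Tspo; some of them are not reported here. Total counts were 2575776 to 18110561, and the floor of 3 counts is 0.160 to 1.65 CPM. The labels give mice as separate samples. Deviations from the group means correlated at 0.47, 0.49 and 0.13 for the same-numbered PBS and EnzR EVs libraries, all above 0.1, so these numbers were taken as pairs, although no label names a shared litter or day and PBS replicate 3 correlated more with EnzR EVs replicate 2 (0.43). With EnzR EVs + HDL NPs, same-numbered libraries gave −0.18 to 0.29, and the numbers were not taken as pairs.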

Additional observations from a re-analysis of the deposited data

How the results depend on the processing

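For EnzR EVs against PBS, edgeR called 0 genes. DESeq2 called 11, DESeq2 without the low-count filter (an alternative chosen after seeing the data) 14, edgeR without the low-count filter 1, the fit with a replicate block 1 and the fit without the 3 libraries of highest Rn45s share 10; leaving out single libraries gave 0 to 2, with 2 without PBS replicate 1. For EnzR EVs + HDL NPs against PBS the count was 0 by edgeR, 8 by DESeq2 and 2 by DESeq2 without the filter, and leaving out single libraries gave 0. Between the injected groups it was 0 by edgeR, 1 by DESeq2 with or without the filter, 1 with only the 6 libraries of the comparison and 1 without the 3 libraries, and 0 with single libraries left out.

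Tspo and Cpox kept their signs in all 3 comparisons under every alternative run, Cpox coming as near 0 as 0.093 for EnzR EVs against PBS. So did Alas2 in EnzR EVs against PBS (−1.74 to −1.07) and between the injected groups (0.17 to 1.33). Alad, Urod and Fech kept theirs in EnzR EVs + HDL NPs against PBS. For EnzR EVs + HDL NPs against PBS, Alas1 turned to −0.00041 with upper quartile factors and −0.098 without the 3 libraries (−0.0996 to 0.077 with single libraries left out), and Ppox to −0.045 without the 3 libraries (−0.063 to 0.23). For EnzR EVs against PBS, the sign turned in 6 of 16 alternatives for Uros (−0.30 to 0.39), in 3 for Alad (−0.74 to 1.12) and Urod (−0.10 to 0.16), in 2 for Ppox (−0.23 to 0.043) and Fech (−0.37 to 0.17) and in 1 for Alas1 (−0.0016 to 0.35). For EnzR EVs + HDL NPs against PBS, Alas2 ranged from −1.05 to 0.082 and Uros from −0.085 to 0.23 with single libraries left out. Between the injected groups, Alas1 turned to 0.054 and Urod to 0.069 with library sizes only, a scaling that also placed the median of all tested genes at 0.24 there and −0.18 for EnzR EVs against PBS. Without the 3 libraries, Alad turned to 0.47, Uros to −0.16 and Fech to 0.15, and single libraries left out gave −0.31 to 0.38 for Uros and −0.028 to 0.26 for Ppox. The cause was not tested. The replicate block gave 0 calls in the other 2 comparisons, where the numbers were not taken as pairs. With it, 3 members in place of 2 were under an unadjusted 0.05 between the injected groups, Alad being added, and 0 members passed an adjusted 0.05. A lone EnzR EVs library is assumed to vary like the other groups. Depth limits Uros, Alas2, Urod and Alad most, with 0, 22, 33 and 34 counts in EnzR EVs replicate 1.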
